A study of Mus musculus with 24 samples.

Results

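The genes described here encode the proteins of the cytosolic ribosome, chosen by name. They are the protein_coding rows of the deposited expression table named Rpl or Rps with a digit, plus Rplp0, Rplp1, Rplp2 and Rpsa, without the Rps6k kinases and without names that end in -ps and a number. The rule found 82 of the 13568 listed genes, of which 45 have canonical large subunit names and 31 canonical small subunit names. The other 6 are Rpl22l1, Rps27l, Rpl7l1, Rpl36al and Rpl39l, which are near copies of ribosomal protein genes, and Rps19bp1, which encodes a binding partner of Rps19 and no ribosomal protein.

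RNA was sequenced from macrophages grown for 7 days out of the bone marrow of male C57Bl/6 mice in medium with 20% L929-conditioned medium and 5 mmol/L glucose. The 4 groups of 6 libraries are unstimulated and stimulated cells of 6 wild-type control mice and of 6 mice with diabetes from streptozotocin, which destroys the pancreatic cells that make insulin. Each mouse gave 1 unstimulated culture and 1 culture that received 100 ng/mL lipopolysaccharide and 10 ng/mL interferon gamma for 6 h, so the replicate number joins the libraries of a mouse within a phenotype. All cultures, those of diabetic mice included, were kept at the same glucose concentration, and the sources used here give no age. Levels are CPM, the reads of a gene divided by the scaled size of its library, as deposited unless another scale is named, and 3 reads correspond to 0.0835 to 0.175 CPM.

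A ribosome is built from ribosomal RNA and the proteins of the small subunit, which reads the messenger RNA, and of the large subunit, which joins amino acids. The mRNAs of these proteins share a pyrimidine-rich start, the TOP motif, through which mTORC1 and LARP1 control their translation, and they are usually transcribed at high and coordinated levels. Mammalian genomes hold many processed pseudogenes, intronless copies of mRNAs, for this family, so that reads from the coding sequence of a ribosomal protein can often be placed in several genes. In macrophages, some members have roles outside the ribosome, among them Rpl13a, which in human monocytic cells leaves the ribosome after interferon gamma and silences inflammatory mRNAs in the GAIT complex.

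Members took a small share of the reads, and their levels spanned a wide range. Per kilobase of the principal GENCODE transcript, mean levels over all 24 libraries ran from 0.390 to 683 CPM per kb, a 1753-fold span. Low levels per length went with coding sequence that is also found elsewhere in the annotation. Of the 50-base stretches (50-mers) of each coding sequence, the share found in no other GENCODE vM21 gene was under 5% in 36 members, 28 of which had none. These 36 had a median level of 2.75 CPM, against 49.7 CPM in the 32 members with 5% to 50% and 117 CPM in the 14 members with 50% or more. Across the 82 members, Spearman's rho between this share and the level per kb was 0.77, as a description of genes that share the same libraries. For the share of the whole transcript, untranslated parts included, rho was 0.42. In 79 of 82 members at least 1 coding 50-mer occurred in an annotated pseudogene. The sources do not state how reads that match several genes were counted, and the part of such reads in the levels was not tested.

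The middle of the coding sequence shows this for members that the results below turn on. Each pair of lines gives 90 bases of a member and the best ungapped match in the pseudogene that holds most of its coding 50-mers, in the transcribed direction from 5′ to 3′, from GENCODE vM21 (GRCm38). Capitals mark the bases that differ between both lines of a pair.
Rps6: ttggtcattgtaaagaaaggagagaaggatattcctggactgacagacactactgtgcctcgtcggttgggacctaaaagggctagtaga
Rps6-ps4: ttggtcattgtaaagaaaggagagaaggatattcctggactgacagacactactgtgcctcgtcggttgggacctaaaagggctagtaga
Rpl10a: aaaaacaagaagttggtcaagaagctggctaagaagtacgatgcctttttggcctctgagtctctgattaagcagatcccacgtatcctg
Rpl10a-ps1: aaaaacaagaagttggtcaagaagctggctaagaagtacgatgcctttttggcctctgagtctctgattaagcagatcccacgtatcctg
Rpl12: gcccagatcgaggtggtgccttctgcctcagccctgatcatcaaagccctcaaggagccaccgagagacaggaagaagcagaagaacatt
Gm10275: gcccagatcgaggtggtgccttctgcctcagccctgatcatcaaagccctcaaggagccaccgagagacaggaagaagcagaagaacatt
Rps24: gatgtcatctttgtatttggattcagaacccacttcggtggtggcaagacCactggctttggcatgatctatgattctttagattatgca
Rps24-ps3: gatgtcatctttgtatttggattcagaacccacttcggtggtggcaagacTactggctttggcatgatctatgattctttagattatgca
Rpl22l1: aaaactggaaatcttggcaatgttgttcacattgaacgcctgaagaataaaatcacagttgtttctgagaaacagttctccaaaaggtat
Gm15421: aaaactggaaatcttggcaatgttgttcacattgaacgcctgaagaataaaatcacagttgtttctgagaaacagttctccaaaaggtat
Rpl22: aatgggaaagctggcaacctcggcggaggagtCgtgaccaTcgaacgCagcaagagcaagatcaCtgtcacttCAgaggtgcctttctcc
Rpl22-ps1: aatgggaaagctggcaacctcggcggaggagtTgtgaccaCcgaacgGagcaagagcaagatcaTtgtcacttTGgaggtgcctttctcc
Rpl4: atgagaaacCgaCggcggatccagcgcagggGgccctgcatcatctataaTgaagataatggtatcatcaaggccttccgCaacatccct
Gm5835: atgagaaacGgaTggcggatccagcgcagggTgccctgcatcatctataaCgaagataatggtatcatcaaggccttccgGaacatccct
The windows of Rps6, Rpl10a, Rpl12 and Rpl22l1 are identical to their pseudogenes, and those of Rps24, Rpl4 and Rpl22 hold 1, 5 and 6 differences. Rps6 (chromosome 4, 86854660 to 86857412, minus strand), whose product is phosphorylated by S6 kinase below mTORC1, had no coding 50-mer of its own and a mean level of 0.419 CPM. Rpl10a (chromosome 17, 28328471 to 28331032, plus strand), a protein of the mobile L1 stalk, had 0.498% and 8.99 CPM. Rpl12 (chromosome 2, 32961559 to 32965345, plus strand), at the base of the P stalk, had none and 4.64 CPM. Rps24 (chromosome 14, 24487125 to 24496959, plus strand), a small subunit protein mutated in some patients with Diamond-Blackfan anaemia, had 22.4% and 125 CPM. Rpl4 (chromosome 9, 64173375 to 64178666, plus strand), which lines the peptide exit tunnel, had 79.8% and 539 CPM.

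Near the unique end of the range, Rpl8 (91.3%) and Rps3 (91.9%) stood at 477 and 227 CPM per kb. Rack1, a small subunit protein outside the name rule, has 98.6% unique coding 50-mers and stood at 448 CPM per kb. The highest level per length was that of Rplp1, a P stalk protein, at 683 CPM per kb with 39.2% unique. Rpl39l is an exception at the low end. This near copy of Rpl39, known from mouse testis, has only unique coding 50-mers and stood at 0.557 CPM per kb. Rps19bp1, also with only unique coding 50-mers, stood at 11.6 CPM per kb. Rpl41 and Rps28, which have none, stood at 84.1 and 36.6 CPM per kb.

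**Figure D1:**
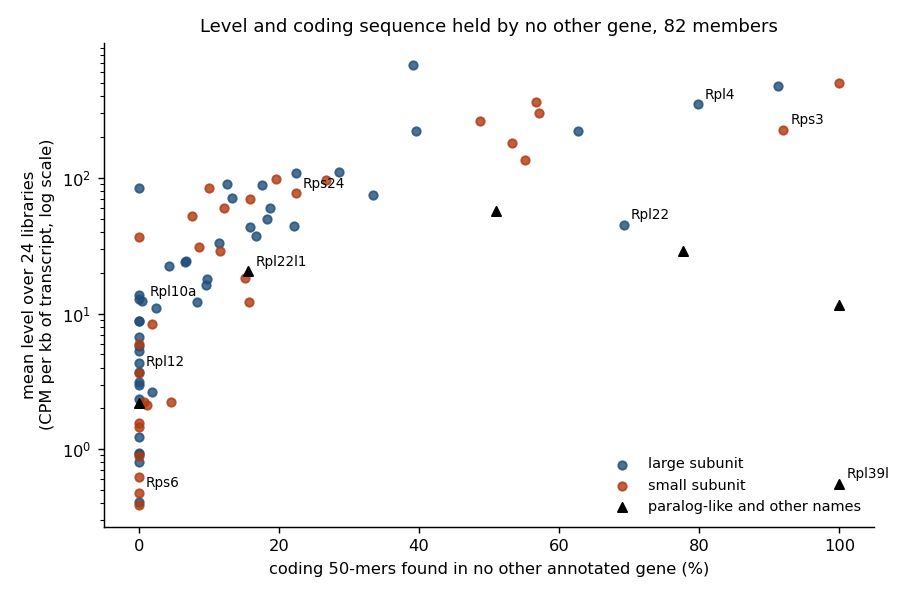
Mean level of each of the 82 members over 24 libraries (CPM per kb of transcript, log axis) against the share of its coding 50-mers found in no other annotated gene (percent). Points are genes, coloured by subunit, with triangles for the 6 paralog-like and other names; the 28 members at 0% lie lowest on the whole, and Rpl39l lies low at 100%.

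Of the 82 members, 73 had at least 1 CPM in at least 6 libraries and were tested. The 9 others were Rpl19, Rpl23a, Rpl36a, Rpl38, Rpl39l, Rps6, Rps16, Rps27 and Rps29. Rps27, a zinc finger protein of the small subunit, ranged from 0.245 to 0.684 CPM in unstimulated control and from 0.225 to 0.848 CPM in stimulated control libraries. Rps6 ranged from 0.340 to 0.632 CPM and from 0.242 to 0.449 CPM in the same groups. Both genes overlapped between the states at these few reads. Rpl39l ranged from 0.0404 to 1.64 CPM in stimulated control libraries, and 1 unstimulated diabetic library had no read of it, where 3 reads would be 0.139 CPM.

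Together the members made up 0.669% ± 0.0134 of reads in unstimulated control, 0.3999% ± 0.0273 in stimulated control, 0.661% ± 0.0148 in unstimulated diabetic and 0.418% ± 0.00899 in stimulated diabetic cells (mean ± SD, n = 6 libraries each). The lowest, median and highest shares were 0.652%, 0.673% and 0.684% in unstimulated control and 0.366%, 0.3996% and 0.430% in stimulated control libraries. In diabetic cells they were 0.645%, 0.659% and 0.680% before and 0.406%, 0.418% and 0.433% after stimulation. Every stimulated library lay below every unstimulated library, while the phenotypes overlapped within each state. In bulk RNA, a change in the mix of cells and a change of RNA per cell cannot be told apart.

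On the deposited scale the same reads gave a flat total. The summed level was 5353 ± 78.2 CPM in unstimulated and 5236 ± 329 CPM in stimulated control cells, and 5184 ± 143 and 5096 ± 129 CPM in diabetic cells. Scaled by the median of ratios it was higher after stimulation, with 4757 ± 68.1 against 5874 ± 343 in control and 4599 ± 114 against 5497 ± 176 in diabetic cells. So the direction of the whole family depended on the scaling: lower as a share of reads, overlapping on the deposited scale, and higher by median of ratios. The balance of the subunits did not depend on it. Reads of large subunit genes stood to those of small subunit genes as 1.26 ± 0.0131 and 1.26 ± 0.00679 in unstimulated control and diabetic cells and as 1.14 ± 0.0117 and 1.16 ± 0.0174 in stimulated ones. The stimulated ratios of 1.12 to 1.19 lay below all unstimulated ratios of 1.25 to 1.28, and this ratio was not tested.

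**Figure D2:**
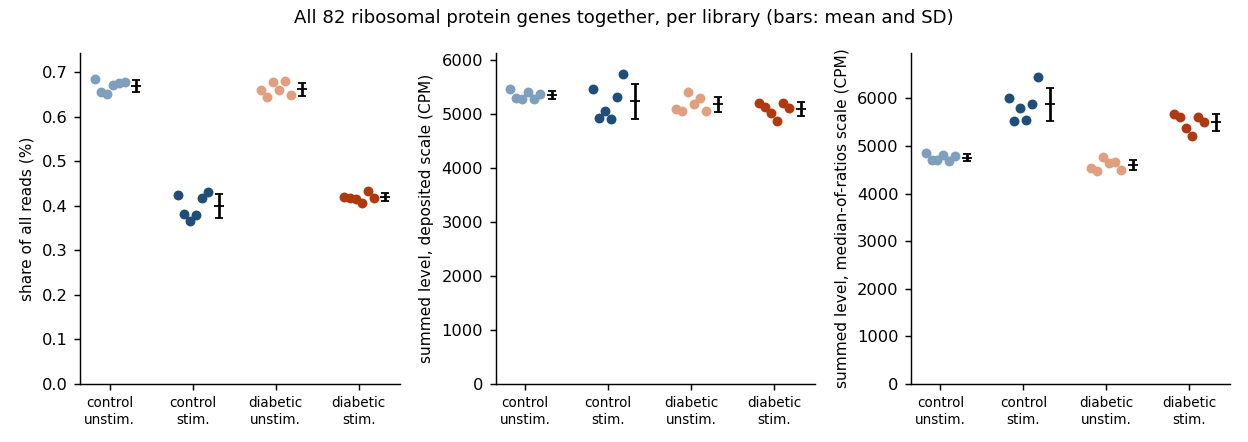
All 82 members together in each of the 24 libraries, as a share of all reads (percent), as a summed level on the deposited scale (CPM) and as a summed level with median-of-ratios scaling (CPM). Dots are libraries and bars mean and SD of 6; stimulated libraries are lower on the left, overlap with unstimulated ones in the middle and are higher on the right.

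On the deposited scale, limma with Benjamini-Hochberg adjustment over all 11710 tested genes called 10 of 73 members up and 34 down after stimulation of control cells, where 34.9% of all tested genes rose and 56.4% fell. In diabetic cells 11 members rose and 30 fell, beside 35.2% and 55.1% of all genes. The median change of the members was -0.08 and -0.09 on the log2 scale, against -0.30 and -0.25 over all genes. These counts turned with the scaling: by median of ratios 44 members rose and 17 fell in control cells and 46 rose and 13 fell in diabetic cells, while per total reads 0 rose and 73 fell, and 0 rose and 72 fell. Over all genes, 45.4% rose and 45.1% fell by median of ratios in control and 44.8% each way in diabetic cells, while per total reads 19.6% and 20.2% rose and 75.6% and 74.7% fell. Over all genes the median change shifted by 0.30 and -0.62 (control cells) and by 0.26 and -0.57 (diabetic cells) under both scalings.

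Single members were therefore compared with the member total: each CPM was divided by the summed CPM of all 82 members in its library, a ratio that no scaling changes. Relative to the total, 15 of 73 members rose and 32 fell in control cells (35.4% and 54.8% of all genes), and 13 rose and 29 fell in diabetic cells (35.5% and 53.6%). In both phenotypes 26 members fell, which is 26 of 32 and 26 of 29, while 10 rose in both, which is 10 of 15 and 10 of 13. The share of all genes called alike in both phenotypes is not given, so these overlaps are a description. No member was called in opposite directions. The columns of the table form 2 blocks of 12 libraries with 3 mice of each phenotype, whose meaning the labels do not give, and Rpl10a, Rpl12, Rpl5, Rpl13a and Rps24 were called in both blocks and phenotypes. By subunit, 19 of 41 large and 10 of 27 small subunit members fell in control cells, and 8 and 7 rose.

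The members that fell furthest have little coding sequence of their own. Of the 19 members past 0.4 on the log2 scale in either phenotype, 17 had under 5% unique coding 50-mers, 16 of which were lower and 1, Rpl27, higher in both phenotypes, and the other 2 were Rpl22 and Rps24. In control cells 21 of the 28 tested members with under 5% fell relative to the total, with a median of -0.41, against 5 of 32 with 5% to 50% (median 0.01) and 6 of 13 with 50% or more (median -0.03). These classes also differ in level, and the part of shared sequence in the falls was not tested.

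Rpl10a had the largest fall of any member. Its lowest, median and highest levels were 10.3, 14.4 and 15.2 CPM in unstimulated and 1.62, 2.62 and 3.74 CPM in stimulated control libraries, and 14.7, 15.4 and 17.1 CPM and 2.90, 3.90 and 4.29 CPM in diabetic ones. No stimulated library came near an unstimulated one, and the change relative to the total was -1.97 ± 0.11 (log2 ± SE, adjusted p = 2.2e-16) in control and -1.79 ± 0.11 (adjusted p = 2.5e-15) in diabetic cells. The processed pseudogene Rpl10a-ps1, which holds 99.5% of the Rpl10a coding 50-mers, stood at 1.02 ± 0.200 and 0.789 ± 0.142 CPM in unstimulated and stimulated control cells.

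The stalk protein gene Rpl12 went from 6.55, 7.30 and 7.61 CPM (lowest, median and highest) to 1.60, 2.12 and 2.51 CPM in control and from 5.94, 6.64 and 6.99 to 2.29, 2.64 and 3.27 CPM in diabetic libraries. All stimulated values lay below all unstimulated ones, with -1.38 ± 0.08 (adjusted p = 3.2e-15) and -0.99 ± 0.08 (adjusted p = 8.2e-12) relative to the total. Rplp0, the scaffold of the P stalk, stood at 306 ± 7.66 and 298 ± 22.8 CPM in control cells (-0.01 ± 0.03, adjusted p = 0.84), and Rplp1 rose by 0.14 ± 0.03 (adjusted p = 0.00048) there, from 333 ± 12.9 to 358 ± 27.8 CPM. Rplp2 rose in diabetic cells (0.12 ± 0.04, adjusted p = 0.015) and had 0.07 ± 0.04 in control cells (adjusted p = 0.13).

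Rpl5 and Rpl11 form the 5S ribonucleoprotein with 5S rRNA and, when free, bind the p53 ligase Mdm2. Rpl5 went from 11.2, 11.6 and 12.5 CPM to 4.04, 5.09 and 5.67 CPM in control and from 11.9, 12.5 and 13.5 to 4.81, 6.05 and 7.22 CPM in diabetic libraries, again without overlap. It changed by -1.05 ± 0.08 and -0.94 ± 0.08 relative to the total (adjusted p = 4.4e-13 and 5.9e-12). Rpl11 fell from 2.89 ± 0.200 to 1.94 ± 0.545 CPM in control (-0.40 ± 0.09, adjusted p = 0.00029) and -0.25 ± 0.09 in diabetic cells (adjusted p = 0.015). Neither Rpl5 nor Rpl11 has a unique coding 50-mer.

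Rpl13a, the GAIT member, went from 15.2, 15.9 and 17.3 CPM to 7.43, 8.28 and 8.82 CPM in control and from 13.2, 13.99 and 14.8 to 6.83, 8.002 and 9.23 CPM in diabetic libraries. The states did not overlap, and it changed by -0.85 ± 0.07 and -0.72 ± 0.07 relative to the total (adjusted p = 1.9e-12 and 6.9e-11), with 2.49% unique coding 50-mers. Rps12, a small subunit protein, went from 4.68 ± 0.273 to 2.21 ± 0.291 CPM in control and from 4.74 ± 0.278 to 2.20 ± 0.484 CPM in diabetic cells (-0.80 ± 0.08 and -0.84 ± 0.08, adjusted p = 4.4e-10 and 1.6e-10). Rpsa, also known as a laminin receptor, changed by -0.54 ± 0.08 and -0.39 ± 0.08, and Rps27a, made as a fusion with ubiquitin, by -0.66 ± 0.09 and -0.60 ± 0.09 (adjusted p = 3.1e-07 and 4e-05, and 3.6e-08 and 1.8e-07).

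Rps24 showed the largest rise. Its lowest, median and highest levels were 101.3, 105 and 111 CPM and, after stimulation, 144, 149.8 and 174 CPM in control libraries, and 98.3, 100.8 and 103 CPM and 135, 139 and 150.0 CPM in diabetic libraries. Each stimulated library was above every unstimulated one, with 0.56 ± 0.03 (adjusted p = 2.1e-15) and 0.50 ± 0.03 (adjusted p = 3.6e-14) relative to the total. Per total reads, however, Rps24 changed by -0.18 and -0.16. Its pseudogene Rps24-ps3 is listed separately, and went from 8.07 ± 0.655 to 12.8 ± 1.16 CPM in control and from 7.55 ± 0.825 to 11.1 ± 1.22 CPM in diabetic cells.

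The other members named for the largest rises relative to the total were Rps20, Rps9, Rpl27, Rpl41 and Rpl22l1. Rps20, of the small subunit head, rose by 0.33 ± 0.03 and 0.28 ± 0.03 (adjusted p = 1.2e-10 and 4.2e-09), from 61.9 ± 2.58 to 76.4 ± 4.32 CPM in control cells. Rps9, which lines the mRNA entry channel, rose by 0.24 ± 0.04 and 0.31 ± 0.04 (adjusted p = 3.7e-07 and 3.1e-09), from 252 ± 7.31 to 291 ± 8.02 CPM in control and from 244 ± 7.43 to 298 ± 11.2 CPM in diabetic cells. Rpl27 rose by 0.27 ± 0.08 and 0.41 ± 0.08 at 2.63 to 4.91 CPM. Rpl41, the shortest ribosomal protein, rose by 0.22 ± 0.04 and 0.12 ± 0.04 (adjusted p = 3.4e-05 and 0.012).

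Further members were nearer to the total. Rps3, a small subunit protein that also binds NF-kB subunits in human cells, ranged from 425 to 458 CPM in unstimulated and from 399.9 to 482 CPM in stimulated control libraries. It changed by 0.00 ± 0.03 and -0.02 ± 0.03 relative to the total (adjusted p = 0.89 and 0.65). Rpl4, chosen after its values were seen for its largely unique coding sequence, changed by -0.23 ± 0.03 and -0.18 ± 0.03 (adjusted p = 8.5e-08 and 4.7e-06). Rps4x had -0.06 ± 0.03 and -0.10 ± 0.03 (adjusted p = 0.092 and 0.0094), Rps19, the gene most often mutated in Diamond-Blackfan anaemia, -0.05 ± 0.03 and -0.13 ± 0.03 (adjusted p = 0.14 and 0.00075), and Rpl39 0.12 ± 0.05 and 0.07 ± 0.05 (adjusted p = 0.027 and 0.18).

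**Figure D3:**
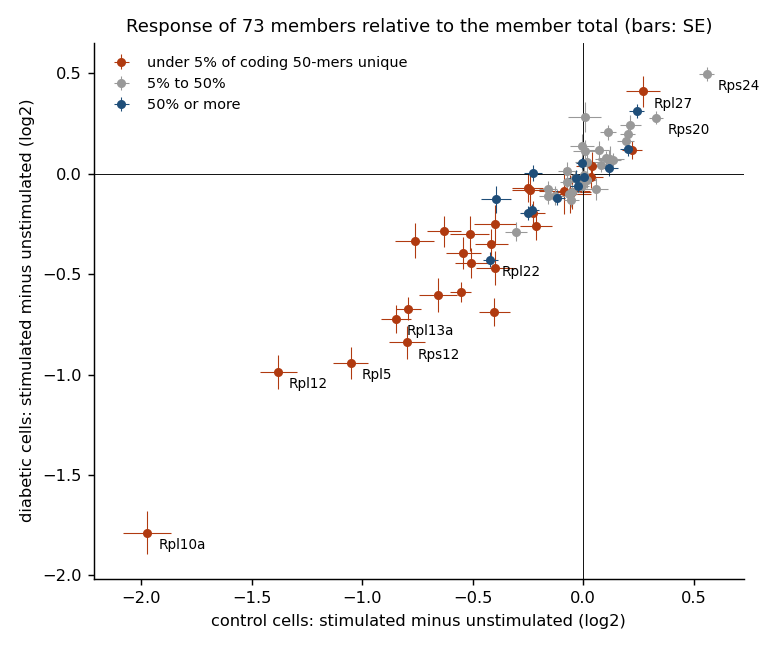
Change after stimulation relative to the member total (log2 ± SE) in control cells (horizontal) and in diabetic cells (vertical) for the 73 tested members, coloured by the share of coding 50-mers that is unique. The members with under 5% reach down to Rpl10a at -1.97 and -1.79, while Rps24 stands highest at 0.56 and 0.50.

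**Figure D4:**
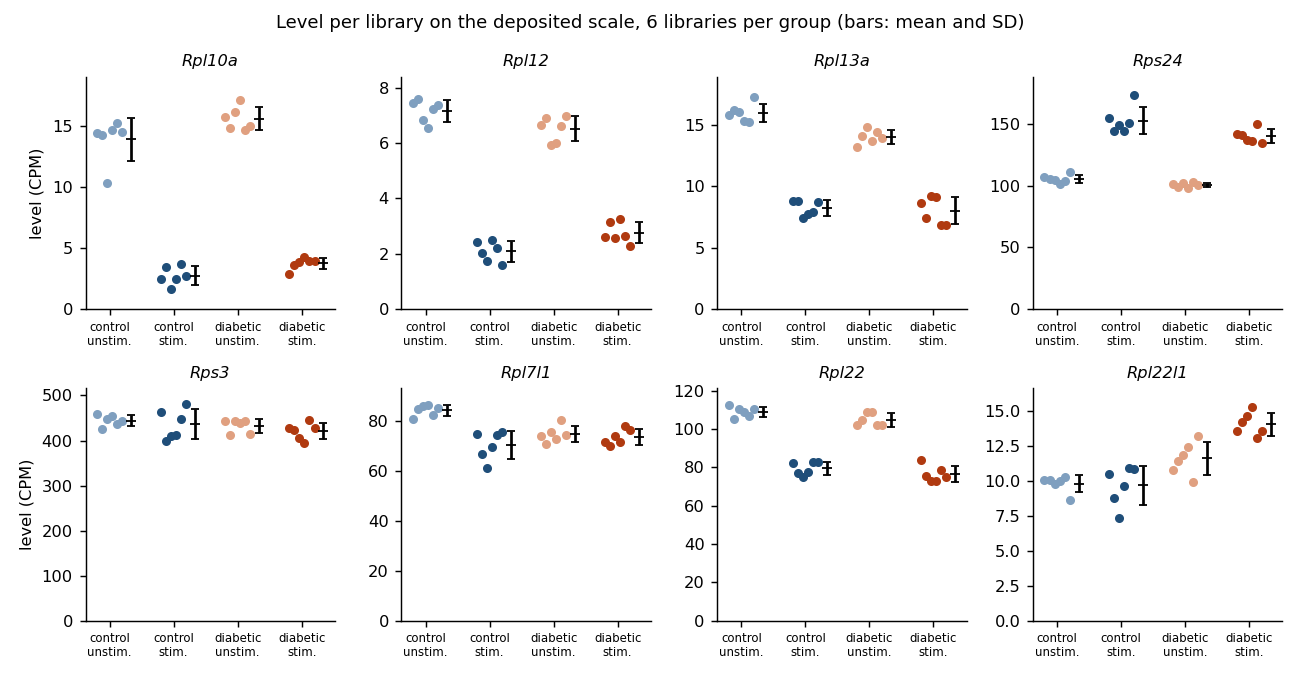
Level on the deposited scale (CPM) of 8 members in each library of the 4 groups, with mean and SD of 6 libraries beside the dots. Rpl10a, Rpl12, Rpl13a and Rpl22 are lower and Rps24 higher in stimulated libraries of both phenotypes, Rps3 overlaps, and Rpl22l1 reaches 13.1 to 15.3 CPM in stimulated diabetic libraries.

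The paralog pair Rpl22 and Rpl22l1 showed a shift in both comparisons. Rpl22 (chromosome 4, 152325742 to 152334071, plus strand) binds RNA and is dispensable for the ribosome in mice, where its loss raises Rpl22l1 (chromosome 3, 28805436 to 28807424, plus strand), whose product can take its place. Rpl22 went from 105, 109.9 and 112 CPM to 74.8, 79.9 and 83.1 CPM in control and from 102, 103 and 109 to 72.7, 75.3 and 83.9 CPM in diabetic libraries. Its states did not overlap (-0.42 ± 0.04 and -0.43 ± 0.04 relative to the total, adjusted p = 5.2e-12 and 3.8e-12), and the phenotypes did.

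Rpl22l1 stood at 8.62, 10.0 and 10.3 CPM in unstimulated and 7.39, 10.1 and 10.9 CPM in stimulated control libraries, which overlapped. In diabetic libraries it stood at 9.98, 11.7 and 13.3 CPM and 13.1, 13.9 and 15.3 CPM. The stimulated diabetic libraries were above all stimulated control libraries, while the unstimulated phenotypes overlapped. It rose relative to the total in diabetic cells (0.28 ± 0.07, adjusted p = 0.00082), with 0.01 ± 0.07 in control cells (adjusted p = 0.93). Within the first column block alone, limma did not call this rise (0.19, adjusted p = 0.061). Rpl22l1 was 0.22 ± 0.07 higher in diabetic than in control cells before stimulation (adjusted p = 0.033) and 0.50 ± 0.07 after it (adjusted p = 2.7e-06). Within the column blocks the difference was 0.46 and 0.55 after stimulation, called in both, and 0.28 and 0.16 before it, not called in the second. Leaving out unstimulated control library 3 or 6, or unstimulated diabetic library 3, 4 or 6, ended the call before stimulation (log2 difference 0.19 to 0.22).

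The ratio of Rpl22l1 to Rpl22 within a library, which needs no scaling, was 0.0899 ± 0.00663 and 0.122 ± 0.0129 in unstimulated and stimulated control cells and 0.111 ± 0.0107 and 0.185 ± 0.0190 in diabetic cells. In none of the 4 comparisons did the groups overlap. The log2 ratio rose by 0.43 on stimulation in control cells and by 0.74 in diabetic cells, in 6 of 6 mice each (exact permutation p = 0.03125, the smallest that 6 pairs can give, adjusted p = 0.036 over 8 tests). It was 0.30 higher in diabetic cells before and 0.61 higher after stimulation (exact permutation p = 0.0022, the smallest that 6 against 6 libraries can give, adjusted p = 0.0087). Rpl22l1 has 15.6% unique coding 50-mers and Rpl22 69.2%.

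Rpl7l1, a relative of Rpl7 that sits on maturing large subunits, went the other way before stimulation. Its levels were 80.8, 84.9 and 86.2 CPM in unstimulated control and 70.6, 74.1 and 80.2 CPM in unstimulated diabetic libraries, with every diabetic library below every control one. After stimulation they were 60.9, 71.8 and 75.3 and 69.9, 72.5 and 77.8 CPM, which overlapped. Rpl7l1 differed by -0.17 ± 0.04 in diabetic cells before stimulation (adjusted p = 0.0043) and had 0.07 ± 0.04 after it (adjusted p = 0.22). Within the second column block alone, limma did not call the difference before stimulation (-0.13, adjusted p = 0.39). Its ratio to Rpl7 was 0.672 ± 0.0299 and 0.534 ± 0.0385 in unstimulated and stimulated control cells and 0.617 ± 0.0252 and 0.585 ± 0.0247 in diabetic cells. The log2 ratio changed on stimulation by -0.33 in control cells (exact permutation p = 0.03125, adjusted p = 0.036) and by -0.08 in diabetic cells (exact permutation p = 0.0625). It differed by -0.12 in diabetic cells before and by 0.14 after stimulation (exact permutation p = 0.013 each, adjusted p = 0.026), and the groups overlapped slightly. The last call was lost when single stimulated libraries were left out, control library 3 among them (0.10).

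**Figure D5:**
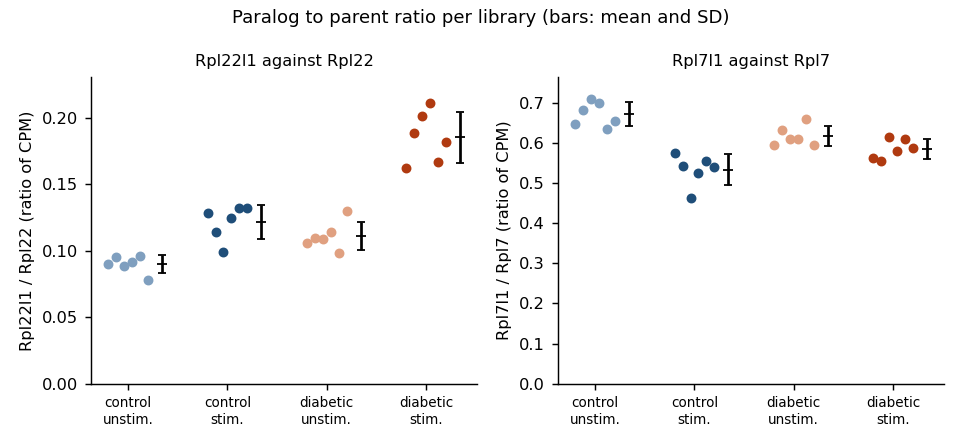
Ratio of Rpl22l1 to Rpl22 and of Rpl7l1 to Rpl7 in each library (ratio of CPM), with mean and SD of 6 libraries beside the dots. The ratio of Rpl22l1 to Rpl22 reaches 0.162 to 0.211 in stimulated diabetic libraries, above the 0.0988 to 0.132 in stimulated control libraries.

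Of the other near copies, Rps27l, a p53-responsive copy of Rps27, stood at 29.8 ± 1.78 and 28.5 ± 2.22 CPM in control cells (-0.03 ± 0.04 relative to the total, adjusted p = 0.48). Rps27 itself did not reach the minimum level. The mean level was 57.1 CPM per kb for Rps27l and 1.47 CPM per kb for Rps27. Rpl36al, with no unique coding 50-mer, stood at 1.39 ± 0.266 and 0.985 ± 0.0982 CPM (-0.24 ± 0.08, adjusted p = 0.006). Rps19bp1, whose product AROS also binds the deacetylase Sirt1, changed by -0.40 ± 0.07 in control cells (adjusted p = 4.1e-06), with -0.13 ± 0.07 in diabetic cells (adjusted p = 0.078).

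Between phenotypes, few members differed before stimulation. On the deposited scale 1 of 73 members, Rpl22l1, was higher and 3 were lower in unstimulated diabetic cells, where 9.16% of all tested genes were higher and 10.2% lower. Besides Rpl7l1 the lower members were Rps18 (37.6 ± 1.91 against 33.7 ± 2.57 CPM, -0.15 ± 0.05, adjusted p = 0.037) and Rpl26, known in human cells for binding p53 mRNA (55.1 ± 2.83 against 49.7 ± 1.94 CPM, -0.15 ± 0.05, adjusted p = 0.024). Both overlapped between the phenotypes, and neither was called when scaled by total reads or by the member total (-0.13 and -0.11 for Rps18, -0.12 and -0.10 for Rpl26). Within the column blocks, 1 member was higher and 1 lower in the first block (5.76% and 7.10% of all genes) and 0 in the second (3.41% and 3.95%). Leaving out any of several single libraries ended the calls of Rps18 and Rpl26, which were lost under 10 and 9 of 28 alternatives.

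After stimulation 9 members were higher and 6 lower in diabetic cells, beside 29.8% and 21.9% of all genes. The median difference of the members was -0.03 against 0.03 over all genes. This split also depended on the scaling, with 8 higher and 24 lower by median of ratios (23.2% and 29.2% of all genes) and 20 higher and 0 lower per total reads (44.5% and 13.05%). Of the 29 tested members with a mean under 15 CPM, 8 were higher and 0 lower, and of the 44 at or above it, 1 was higher and 6 lower. In the first column block 3 were higher and 1 lower (19.96% and 15.8% of all genes), and in the second 6 and 4 (21.1% and 16.5%).

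The largest differences after Rpl22l1 were those of Rpl10a, Rps13 and Rpl21. Rpl10a was 0.36 ± 0.11 higher in stimulated diabetic than in stimulated control cells (adjusted p = 0.0059), and the groups overlapped. Rps13, a small subunit protein at the subunit interface, stood at 0.281, 0.643 and 1.05 CPM in stimulated control and 0.904, 1.064 and 1.30 CPM in stimulated diabetic libraries, which overlapped (0.34 ± 0.09, adjusted p = 0.0024). Rpl21, a large subunit protein, stood at 0.848, 0.994 and 1.34 and 1.35, 1.48 and 1.79 CPM, where every diabetic library lay above every control one (0.29 ± 0.07, adjusted p = 0.0013). These 3 genes have at most 0.737% unique coding 50-mers and few reads.

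The 6 lower members were Rpl41, Rps19, Rpl30, Rps3a1, Rps18 and Rps24. Rps19 went from 70.6, 78.2 and 82.9 CPM in stimulated control to 63.0, 68.5 and 71.5 CPM in stimulated diabetic libraries, with a small overlap (-0.17 ± 0.04, adjusted p = 0.00063). Rpl41 differed by -0.18 ± 0.05 (adjusted p = 0.0041), Rpl30 by -0.14 ± 0.05 (adjusted p = 0.022) and Rps3a1 by -0.14 ± 0.05 (adjusted p = 0.019). Rps18 had -0.13 ± 0.05 and Rps24 -0.12 ± 0.04 (adjusted p = 0.045 and 0.01). None of the 6 was called per total reads, where their differences were -0.08 to -0.02. The call of Rps18 was lost under 14 of 28 alternatives, among them the member total, no minimum level, each column block and 6 left-out libraries, with -0.16 to -0.10 over single libraries left out.

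The response to stimulation differed between phenotypes in 7 members, 6 with a higher and 1 with a lower change in diabetic cells, beside 19.6% and 12.4% of all genes. Rps13 changed by -0.78 in control and -0.34 in diabetic cells (difference 0.44 ± 0.13). Rpl12 changed by -1.41 and -1.002 (0.41 ± 0.11, adjusted p = 0.0045), and Rpl21 by -0.66 and -0.30 (0.36 ± 0.10, adjusted p = 0.0084). Rpl7l1 changed by -0.26 and -0.02 (0.24 ± 0.06, adjusted p = 0.0038). Rpl22l1 and Rps19bp1 differed by 0.28 ± 0.10 and 0.28 ± 0.10 (adjusted p = 0.04 and 0.032), but these calls were lost under 18 and 12 of 39 alternatives. Median of ratios (0.24 and 0.23), quantile normalization (0.15 and 0.17), each column block and many single libraries left out (0.21 to 0.32 and 0.23 to 0.32) were among them. With the mouse as a block the counts were 6 higher and 0 lower. Within each column block, 1 higher and 0 lower members were called, beside 12.4% and 8.42% of all genes in the first and 8.22% and 5.80% in the second. Rps13 passed the minimum level through unstimulated cells, where 12 of 12 libraries reached 1 CPM against 5 of 12 stimulated ones. Its fall and the difference of its responses are therefore given as a description, without a p-value. In all, 3 tested members passed it in this way and 0 in the reverse way.

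Lists of genes that build and serve the ribosome are set beside all tested genes. Of all genes, 34.9% rose and 56.4% fell in control and 35.2% and 55.1% in diabetic cells. By median of ratios 45.4% and 45.1% did so in control and 44.8% each way in diabetic cells. In diabetic against control cells 29.8% were higher and 21.9% lower after stimulation, and 9.16% and 10.2% before it. These lists were chosen with results of these data known, and their counts are on the deposited scale unless another is named. Of 45 ribosome biogenesis factors 4 rose and 41 fell in stimulated control cells (median -1.17) and 6 rose and 37 fell in diabetic cells (median -0.74). By median of ratios 6 rose and 34 fell, and 9 rose and 31 fell. Nop56, a core protein of box C/D snoRNPs, fell from 45.7 ± 2.19 to 10.9 ± 1.35 CPM in control cells (-1.98 ± 0.06), while Sbds, which releases Eif6 from new large subunits, rose from 46.8 ± 2.41 to 365 ± 20.5 CPM (2.94 ± 0.04). Between phenotypes 34 of the 45 were higher and 1 lower in stimulated diabetic cells (median 0.29), among them Heatr1, a factor of rRNA transcription and processing, which stood at 44.4 ± 6.13 CPM there in controls and 74.1 ± 6.64 CPM in diabetics (0.73 ± 0.07). Before stimulation 0 were higher and 3 lower, at a median of -0.06.

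Of 14 RNA polymerase I genes 2 rose and 12 fell in control cells (median -0.70), and 7 were higher and 2 lower in stimulated diabetic cells. Polr1b, the second largest subunit, went from 18.8 ± 1.03 to 1.58 ± 0.313 CPM in control and from 17.6 ± 1.45 to 3.17 ± 0.817 CPM in diabetic cells. Of 8 snoRNA host genes 0 rose and 7 fell in control and 0 rose and 8 fell in diabetic cells. Among them Gas5, whose RNA also has a TOP motif, went from 50.7 ± 2.93 to 15.9 ± 0.635 CPM in control cells (-1.61 ± 0.05). Of 15 regulators of TOP mRNAs and mTORC1, 5 rose and 9 fell in control cells, near the shares of all genes. Larp1, which binds the TOP motif, rose from 134 ± 4.64 to 549 ± 33.9 CPM (2.02 ± 0.04), and the translation repressor Eif4ebp2 fell from 145 ± 5.13 to 23.02 ± 2.82 CPM (-2.61 ± 0.05).

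Of 76 tested mitochondrial ribosomal protein genes, 14 rose and 58 fell in control and 15 rose and 54 fell in diabetic cells, counts that became 24 and 39, and 27 and 31, by median of ratios. Of 29 initiation factors 6 rose and 15 fell in control cells, against 17 and 6 by median of ratios, and 10 rose and 12 fell in diabetic cells. Of 8 elongation factors 1 rose and 4 fell in control cells, against 4 and 3 by median of ratios. The rise of Eif4g2 from 801 ± 19.6 to 2933 ± 55.9 CPM (1.87 ± 0.03) and the fall of Eif4b from 344 ± 6.75 to 128 ± 6.34 CPM (-1.42 ± 0.03) were the clearest in the initiation list. Of 11 genes of ribosome and nascent chain quality control, 4 rose and 7 fell in control cells, near the shares of all genes. Of 5 partners of Rpl13a in the GAIT complex or upstream of it, 1 rose and 3 fell in control cells, and all 5 were higher in stimulated diabetic than in stimulated control cells, Eprs by 0.47 ± 0.06 and Dapk1 by 0.53 ± 0.06. Of the ribosomal components outside the name rule, Rack1 stood at 679 ± 10.9 and 657 ± 50.9 CPM in control cells, and Fau, without a unique coding 50-mer, stood at 1.25 and 1.19 CPM there.

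The libraries held 16754771 to 34130060 reads in the listed genes, and r between libraries within groups was 0.994 to 0.998. All 8 macrophage markers were found, with a summed level of 14225 to 19707 CPM over the libraries. Of these 8 genes, 1 was called higher and 4 lower in unstimulated diabetic cells, beside 9.16% and 10.2% of all genes. In stimulated diabetic cells 1 was higher and 3 lower, beside 29.8% and 21.9%. All 6 proliferation markers summed to 945 to 1212 CPM in unstimulated control and 1213 to 1355 CPM in unstimulated diabetic libraries, and to 137 to 171 and 171 to 223 CPM after stimulation. Singly, 4 of the 6 were called higher and 2 lower in unstimulated diabetic cells, beside 9.16% and 10.2% of all genes. In stimulated diabetic cells 5 were higher and 0 lower, beside 29.8% and 21.9%. Listed dendritic cell markers (2 of 5 in the table) summed to 46.7 to 207 CPM in unstimulated control and 198 to 321 CPM in unstimulated diabetic libraries, and to 52.7 to 170 and 177 to 284 CPM after stimulation. B lineage markers (2 of 5) summed to 7.57 to 20.7 and 24.3 to 58.3 CPM before stimulation. Of these 2 genes, 1 was called higher and 1 lower in unstimulated diabetic cells. Of the T and NK cell markers 1 was tested, and it was called lower in stimulated diabetic cells. The T and NK cell markers in the table (2 of 7) summed to 6.82 to 9.81 and 4.23 to 8.16 CPM before and to 2.30 to 5.13 and 1.07 to 2.83 CPM after stimulation. Neutrophil markers (2 of 7) summed to 14.3 to 23.3 and 34.1 to 43.7 CPM before and to 28.8 to 34.9 and 38.9 to 50.9 CPM after it, and progenitor markers (2 of 4) to 1.90 to 3.70 and 4.11 to 5.37 CPM before it. Mitochondrially encoded genes took 0.786% to 0.944% of reads in unstimulated control and 1.10% to 1.20% in unstimulated diabetic libraries, and 0.511% to 0.622% and 0.665% to 0.807% after stimulation. Among the ranges given by phenotype, those of the dendritic markers before stimulation and of the T and NK cell markers in both states overlapped. The others did not. Their part in the differences of the members was not tested.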

How the data were processed

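RNA was extracted with mirVana and libraries were made with the TruSeq Stranded mRNA kit, per the labels' protocols, although the labels name the molecule as genomic DNA. The submitters' processing notes name STAR 2.5.3a, R 3.3.3, edgeR 3.16.5 and the builds GRCm38 and mm10. The sources used here name no counting tool or rule for reads with several matches. The table is in log2 CPM, deposited by the authors with a prior of 0.25 reads; 100% of values gave whole reads within 0.01 read. CPM was recovered by removing the prior, and log2(CPM + 1) of genes reaching 1 CPM in 6 or more libraries was tested with limma 3.58.1 (trend and robust, 4 group means, 20 residual degrees of freedom, Benjamini-Hochberg threshold 0.05). Fold changes are on the log2(CPM + 1) scale, which understates the change of low genes. No count test was run on the recovered reads. Relative responses used CPM divided by the summed CPM of the 82 members.

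Effective library sizes were 0.726 to 1.29 times the read totals. Libraries of a group differed by at least 2.96 chi-square per degree of freedom, so none was a repeat. By the design text each mouse's cells were divided into both cultures, which equal numbers join within a phenotype; across phenotypes the numbers pair nothing. The deviations of a mouse's cultures correlated at 0.12 on average (-0.08 to 0.40), above 0.1 in 5 of 12 mice. The main limma p-values measure the spread between libraries of different mice within groups. They treat both cultures of a mouse as independent, and the pairing enters only where the mouse is a block. Exact p-values of the ratio responses measure the spread of the differences within mice, and those between phenotypes the spread between libraries.

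Coding sequences, pseudogenes and 50-mer matches (exact, both strands) came from GENCODE vM21. Analyses ran in R 4.3.3 and Python 3.11.15, and the limma steps were first tested on simulated data. The members and gene lists were chosen with earlier results of these data known. Named members were the 5 largest called changes in each direction of a relative response, all called members of a phenotype comparison or the interaction if 6 or fewer in a direction and otherwise the 4 largest, a panel chosen by role, those below the minimum level, and up to 3 genes per other list by p. Results of a few genes are not reported here. Alternatives covered scaling, filter, pseudocount, weights, blocks, subsets and left-out libraries.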

Additional observations from a re-analysis of the deposited data

Results flagged for a closer look

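In 6 of 84 groups of 6 libraries tested, 1 library stood apart from the other 5 by more than Dixon's 95% limit, which chance passes in about 1 in 20 groups. Unstimulated control library 3 had the lowest Rpl10a level of its group, 10.3 CPM against 14.2 CPM in the next. Unstimulated control library 6 had the lowest Rpl22l1 level, 8.62 CPM against 9.78 CPM, and the highest Rps19bp1 level, 12.3 CPM against 11.1 CPM. Stimulated control library 1 had the highest Rps12 level, 2.77 CPM against 2.22 CPM. Stimulated control library 6 had the highest levels of Rps24, 174 CPM against 154 CPM, and Rps3a1, 32.3 CPM against 29.0 CPM.

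The response to stimulation differed between phenotypes by limma's interaction term in 7 members, of which 6 are given as the log2 change in diabetic minus that in control cells. The difference was 0.44 for Rps13, 0.41 for Rpl12, 0.36 for Rpl21, 0.28 for Rpl22l1, 0.28 for Rps19bp1 and 0.24 for Rpl7l1. That of Rps13 is only a description, since this gene passed the minimum level through unstimulated cells.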

How the results depend on the processing

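The 41 single-gene values kept their sign under every alternative run and 20 kept their call under all of them, while the counts over members turned with the scaling; column block as a covariate and pseudocounts of 0.25 and 5 ended none of the 41. Counts are members higher and lower. After stimulation, the responses became 0 and 73 (control) and 0 and 72 (diabetic) per total reads and 44 and 17, and 46 and 13, by median of ratios; by quantile normalization 26 and 29 rose, and in column block 2 alone 7 rose in diabetic cells and 9 relative to the total in control cells. Between stimulated phenotypes, total reads gave 20 and 0, median of ratios 24 lower, the member total 3 lower and block 1 alone 3 and 1. Between unstimulated phenotypes, lower members numbered 1 per total reads, per member total and in block 1, 6 by quantile normalization, 15 with array weights and 8 with the compared groups only, with 0 and 0 in block 2. For the interaction, 0 were lower with a 5 CPM minimum, the deposited log2 values, quantile normalization, the replicate block (which ended 1 of the 41 calls) or either block alone, where 1 was higher; total reads gave 12 higher and median of ratios 2 lower. With only members of at least 20% unique coding 50-mers, an alternative chosen after seeing the data, counts were 1 and 1 (stimulated), 0 and 1 (unstimulated), 2 and 0 (interaction), 6 and 7 and 5 and 6 (responses, control and diabetic), and 8 and 7 and 6 and 5 (relative responses). Leaving out single libraries gave 8 to 10 higher and 4 to 12 lower (stimulated), 0 to 1 and 1 to 4 (unstimulated), 4 to 7 and 0 to 1 (interaction), 9 to 12 and 31 to 38 (control response), 9 to 12 and 29 to 31 (diabetic response), 13 to 15 and 31 to 32, and 13 to 14 and 27 to 29 (relative responses). Without single mice the log2 ratio of Rpl22l1 to Rpl22 rose by 0.36 to 0.49 in control and 0.71 to 0.79 in diabetic cells, and that of Rpl7l1 to Rpl7 changed by -0.37 to -0.28 in control cells, where 5 pairs cannot give an exact p below 0.0625; between stimulated phenotypes it differed by 0.10 to 0.16. Where no scaling is named as the difference, the cause was not tested. Members of few reads, 3 reads being up to 0.175 CPM, limit the calls at low levels.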
